A study of Mus musculus with 16 samples.

Results

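Imprinted genes are transcribed mainly from the copy inherited from 1 parent, and many of them set how much a fetus or a tissue grows. The genes described here are 10 such genes of the mouse: the noncoding RNAs H19, Meg3, Rian and Mirg, and the protein-coding genes Dlk1, Mest, Peg3, Plagl1, Cdkn1c and Grb10. They were chosen by name as growth-control genes and matched by symbol, and 8 of the 10 were found among 36829 features. Rian and Mirg are not analysed here. Of the 8, 7 were among the 16973 features whose mean reached 0.5 RPKM (reads scaled by transcript length and library size) over all mice, and only these 7 and the other features so kept were tested. The RNA came from femoral cortical bone of 11-week-old female C57Bl/6 mice, with the bone ends cut off and the marrow flushed out. In the HLU group (hindlimb unloading, n = 8) the tail was held in a harness for 7 days so that the hind limbs bore no weight, and the Control group (n = 8) walked normally. All mice were females of a single strain at a single time point, and each library is 1 mouse. Isoflurane anaesthesia is described for the fitting of the harness in the HLU group, and no drug treatment or transgene is named for either group. The comparison asks which transcripts of bone follow the loss of mechanical load.

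Imprinted growth genes are held to form a network that is highly active before birth and is turned down as the animal stops growing. Genes expressed from the father's copy, such as Peg3, Plagl1, Mest and Dlk1, are mostly known to promote growth. Genes expressed from the mother's copy, such as H19, Cdkn1c and Grb10, are mostly known to restrain it. H19 lies beside the growth factor gene Igf2 on chromosome 7, where Peg3 and Cdkn1c also lie. Meg3, Rian, Mirg and Dlk1 lie in a shared imprinted cluster on chromosome 12, Mest on chromosome 6, Plagl1 on chromosome 10 and Grb10 on chromosome 11.

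H19, Meg3 and Mest also carry microRNAs in their transcripts or introns, so their level bears on precursors of small RNAs that were not themselves measured in these libraries. The mature sequences are shown because they are products of these genes beside the long RNA or protein. They are from RefSeq (GRCm38.p6), written 5′ to 3′ with the seed, the bases that pair with a target, in capitals. The H19 pair lies on the minus strand at chr7:142577112-142577133 for the 5p arm and chr7:142577078-142577099 for the 3p arm. The Meg3 pair lies on the plus strand at chr12:109563710-109563731 and chr12:109563744-109563765, and the Mest pair on the plus strand at chr6:30741314-30741336 and chr6:30741354-30741375.
mmu-miR-675-5p in H19: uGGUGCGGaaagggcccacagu
mmu-miR-675-3p in H19: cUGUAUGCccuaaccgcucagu
mmu-miR-770-5p in Meg3: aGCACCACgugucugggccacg
mmu-miR-770-3p in Meg3: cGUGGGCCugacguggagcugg
mmu-miR-335-5p in Mest: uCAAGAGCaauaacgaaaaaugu
mmu-miR-335-3p in Mest: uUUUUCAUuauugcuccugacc
None of these 6 shares its seed with another of them. The table used also lists mmu-miR-1906 within Meg3, 6 mature microRNAs within Rian and 19 within Mirg.

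The total reads by which the authors divided, recovered from the values, ran from 7067512 in Control 2 to 21363584 in HLU 6, and the next smallest library was HLU 5 with 7838277. For a feature of 1 kilobase, 3 counts correspond to 0.140 to 0.424 RPKM in these libraries. Every kept feature gave whole counts, within a tolerance of 0.02 of a whole number. Markers of the labelled tissue, taken as a sum, were present in every mouse. The 6 osteocyte markers summed to 179 to 589 RPKM in Control and 263 to 598 RPKM in HLU. None of the 6 was at 0 in all 16 mice. Marrow cells were present too. The 6 granulocyte markers with a value, of 9 listed, summed to 17385 to 37337 RPKM in Control and 12268 to 44001 RPKM in HLU, and the 10 erythroid markers to 3078 to 8736 and 1683 to 4520 RPKM. The mean log2 level of the erythroid markers differed by -0.60 between HLU and Control, that of the osteocyte markers by 0.47 and that of the granulocyte markers by -0.11. In bulk RNA, fewer cells of a type and less RNA per cell cannot be told apart.

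The 8 genes spanned a wide range of levels per length in the control mice. H19 was the highest at 43.0 ± 27.5 RPKM (SD, n = 8), followed by Grb10 at 8.02 ± 1.90, Cdkn1c at 4.298 ± 1.53, Peg3 at 2.83 ± 0.944, Plagl1 at 2.05 ± 0.726, Mest at 1.83 ± 0.438, Meg3 at 1.45 ± 0.875 and Dlk1 at 0.0340 ± 0.0269 RPKM. Each gene was compared with the next lower one within mice, in an exact two-sided sign-flip permutation test whose smallest p is 0.00781 with 8 mice. H19 exceeded Grb10 in 8 of 8 control mice (exact p = 0.00781), Grb10 exceeded Cdkn1c in 7 of 8 (exact p = 0.0156) and Cdkn1c exceeded Peg3 in 7 of 8 (exact p = 0.0156). Neighbours among Peg3, Plagl1, Mest and Meg3 were not separated in this test, with exact p of 0.117, 0.570 and 0.125 in this order. Genes further apart in the order were not tested, though Peg3 lay above Mest and above Meg3 in every Control mouse. Meg3 exceeded Dlk1 in 8 of 8 mice, with means that differed 42.6-fold (exact p = 0.00781). These levels rest on the lengths the authors divided by, which for H19 was 5688 and for Meg3 24955 bases.

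**Figure D1:**
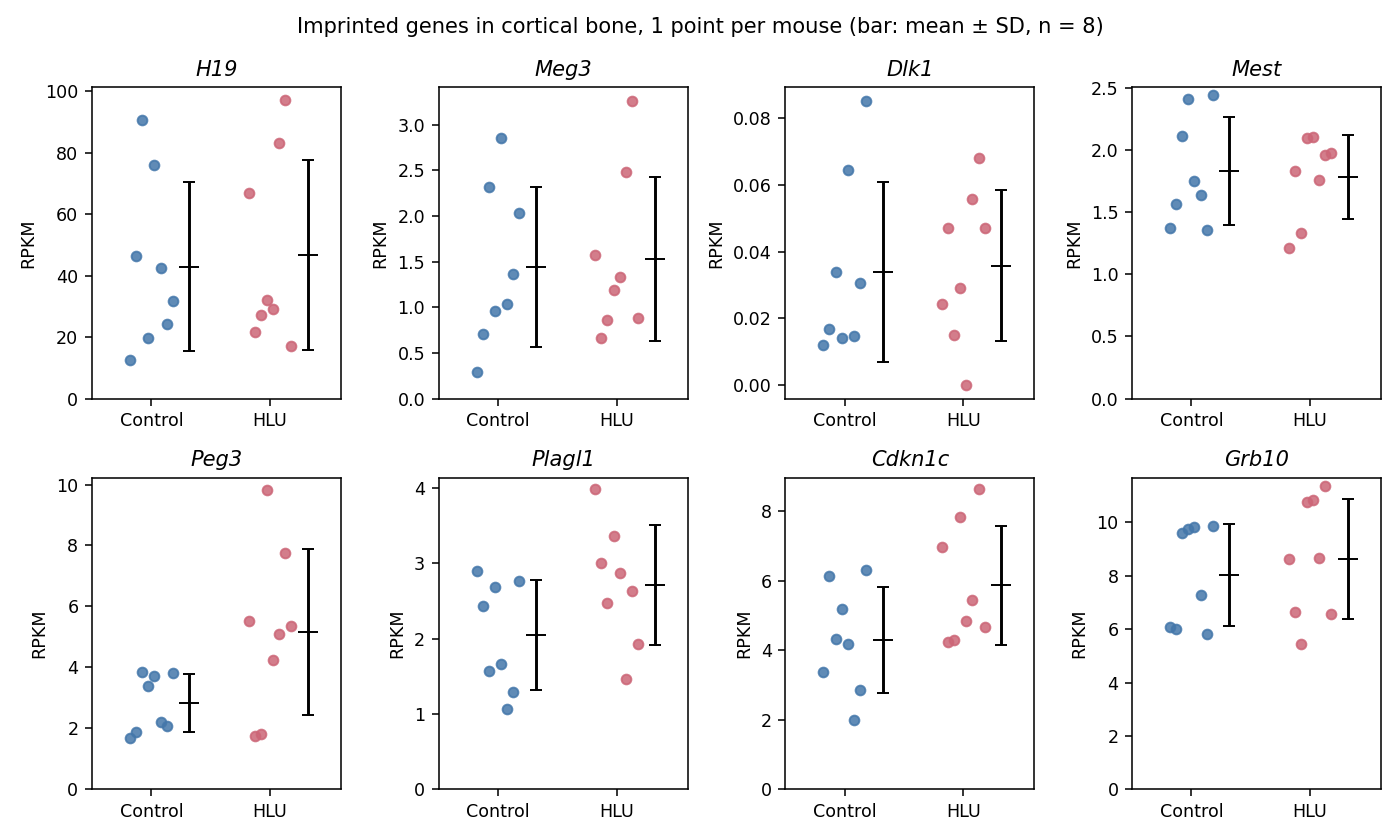
RPKM (y axis, linear, 1 scale per panel) of 8 imprinted genes in each of 8 Control and 8 HLU mice, 1 point per mouse, with the group mean and SD beside the points. H19 spans 12.6 to 97.1 RPKM with both groups over the same range, 6 of 8 HLU mice lie above every Control mouse for Peg3, and Dlk1 is at most 0.0849 RPKM.

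The 2 long noncoding RNAs differed more between mice than between groups. H19, the host of miR-675, ran from 12.6 through a median of 37.1 to 90.6 RPKM in Control and from 17.3 through 30.7 to 97.1 RPKM in HLU. Control 3, Control 5, HLU 1, HLU 6 and HLU 7 were the mice with the highest H19, all at 67.0 RPKM or more, and the groups overlapped over nearly their whole range. The HLU mean was 46.9 ± 30.9 RPKM (n = 8), and the log2 fold change from limma on log2(RPKM + 0.1) was 0.12 ± 0.44 (SE), with an adjusted p of 0.945 and an exact permutation p of 0.794. Its 95% interval, -0.80 to 1.04, holds changes of nearly 2-fold in either direction. With the mean log2 level of tendon and periosteal fibroblast markers as a covariate, the log2 fold change of H19 turned to -0.12.

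Meg3, the noncoding RNA of the chromosome 12 cluster, ran from 0.297 through 1.198 to 2.85 RPKM in Control and from 0.666 through 1.26 to 3.26 RPKM in HLU. Control 1 had the lowest and HLU 7 the highest value of the 16 mice, which differed 11.0-fold. The means were 1.45 ± 0.875 and 1.53 ± 0.902 RPKM, with a log2 fold change of 0.15 ± 0.40 (limma adjusted p = 0.932, exact permutation p = 0.738). With the mean log2 levels of the erythroid and granulocyte markers as covariates, the log2 fold change of Meg3 was 0.61, with a limma p of 0.0303 before and 0.204 after adjustment. With the tendon and periosteal fibroblast score as the covariate it turned to -0.13, with a limma p of 0.565 before adjustment, and Meg3 had an r of 0.867 with that score. Dlk1, which codes for a transmembrane ligand of the Notch type and is expressed from the father's copy of the same cluster, was close to the floor in all mice. It was at 0.0121 to 0.0849 RPKM in Control and 0 to 0.0681 RPKM in HLU. The values correspond to at most 20 counts per mouse, and 13 of the 15 values above 0 were multiples of 4 counts. HLU 5 had no count, and 3 counts in that library correspond to 0.0228 RPKM. As most values were multiples of 4 counts, a read may have been counted more than once. A bound of 3 reads would then lie higher. Dlk1 was under the filter and was not tested by limma, and its exact permutation p was 0.851.

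Of the genes expressed from the father's copy, Peg3 had the largest difference between groups. Peg3, a zinc finger protein, ran from 1.69 through 2.79 to 3.86 RPKM in Control and from 1.73 through 5.24 to 9.81 RPKM in HLU. HLU 4 and HLU 7 were the highest, at 9.81 and 7.75 RPKM. HLU 2 and HLU 3, at 1.73 and 1.82 RPKM, lay among the lowest Control mice, while the other 6 HLU mice lay above every Control mouse. Such a pattern, with at least 6 of 8 HLU mice above every Control mouse, was seen in 0.218% of the kept features (37 of 16973). The cut of 6 is the count of Peg3 itself, so this share is a description and no test. The means were 2.83 ± 0.944 and 5.17 ± 2.73 RPKM, with a log2 fold change of 0.71 ± 0.33 (1.64-fold). The unadjusted limma p was 0.0459, the limma p adjusted over all kept features 0.744 and the exact permutation p 0.0631, so that the exact test did not pass 0.05. The limma p also rose above 0.05, to between 0.0573 and 0.1002 with log2 fold changes of 0.55 to 0.72, when any of Control 1, 2, 6 and 7 or HLU 1, 4, 5, 6, 7 and 8 was left out. Within groups Peg3 was lower in mice with a higher granulocyte score (r = -0.89). With the erythroid and granulocyte scores in the fit its log2 fold change was 0.61, with a limma p of 0.00788 before and 0.167 after adjustment. That fit called 3208 of the 16973 kept features at an unadjusted p under 0.05 and 1.2-fold, against 996 without the scores.

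Plagl1, a zinc finger transcription factor that regulates other imprinted genes, ran from 1.07 through 2.04 to 2.90 RPKM in Control and from 1.46 through 2.75 to 3.99 RPKM in HLU. Of the HLU mice 3 lay above every Control mouse, and HLU 6 was the lowest of its group. The log2 fold change was 0.41 ± 0.23, with an unadjusted limma p of 0.0954, an adjusted p of 0.744 and an exact permutation p of 0.109. With the erythroid and granulocyte scores as covariates the log2 fold change of Plagl1 was 0.0032, with a limma p of 0.989 before adjustment. Mest, a hydrolase-like protein and host of miR-335, had the narrowest spread of the tested genes: 1.36 to 2.44 RPKM in Control and 1.21 to 2.10 RPKM in HLU. The means were 1.83 ± 0.438 and 1.78 ± 0.338 RPKM, with a log2 fold change of -0.03 ± 0.16 and a 95% interval of -0.37 to 0.32 (limma adjusted p = 0.970, exact permutation p = 0.853).

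A G- and C-rich sequence is known to be bound by Plagl1, and the letters GGGGCCCC were searched for in the promoters of these genes, windows around a transcript start in the RefSeq table (GRCm38.p6). The search is palindromic, so that it covers both strands. H19 and Cdkn1c were not searched. Of 32851 promoters in the table, 1.08% held a match. Among the promoters of Mest, Peg3, Plagl1, Grb10, Dlk1, Meg3, Rian and Mirg, a match was found in that of Peg3, shown here with the matching letters in capitals, on the minus strand at chr7:6730370-6730669:
Peg3 promoter: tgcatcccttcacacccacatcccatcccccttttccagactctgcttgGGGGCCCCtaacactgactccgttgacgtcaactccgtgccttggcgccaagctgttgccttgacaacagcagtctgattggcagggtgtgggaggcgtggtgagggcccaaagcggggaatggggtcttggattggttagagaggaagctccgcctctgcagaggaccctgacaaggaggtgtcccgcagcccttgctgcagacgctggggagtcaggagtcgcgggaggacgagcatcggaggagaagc
Peg3 and Plagl1 did not vary together between mice (r = 0.04 within groups, permutation p = 0.878), and the letters are a description of this window only.

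Both protein-coding genes that are expressed from the mother's copy and known to restrain growth had a higher mean in HLU. Over all 16 mice and without further scaling, neither had a limma p under 0.05 on log2(RPKM + 0.1), before or after adjustment (unadjusted p = 0.0531 for Cdkn1c and 0.611 for Grb10). Cdkn1c, an inhibitor of cyclin-dependent kinases, ran from 1.99 through 4.25 to 6.30 RPKM in Control and from 4.24 through 5.14 to 8.63 RPKM in HLU. Of the Control mice 4 lay below every HLU mouse and 3 HLU mice lay above every Control mouse. The means were 4.298 ± 1.53 and 5.87 ± 1.71 RPKM, with a log2 fold change of 0.48 ± 0.23 (1.39-fold), an unadjusted limma p of 0.0531, an adjusted p of 0.744 and an exact permutation p of 0.0667. Its counts were 90 to 425 per mouse, against 253 to 3058 for Peg3. With the scalings by median of ratios and by quantiles and with voom on counts, its log2 fold change was 0.56, 0.59 and 0.54, each with an unadjusted limma p under 0.05 (0.0349, 0.0322 and 0.0298). With the erythroid and granulocyte scores as covariates it was 0.25, with a limma p of 0.305 before adjustment, and Cdkn1c had an r of -0.600 and -0.553 with these scores. Within Control these r were -0.355 and -0.130, and within HLU -0.914 and -0.953. Grb10, an adaptor protein that dampens insulin and IGF receptor signalling, ran from 5.81 through 8.44 to 9.86 RPKM in Control and from 5.45 through 8.64 to 11.4 RPKM in HLU. Its log2 fold change was 0.09 ± 0.18, with a 95% interval of -0.29 to 0.48 (limma adjusted p = 0.899, exact permutation p = 0.613). It turned to -0.0036 with the erythroid and granulocyte scores and to -0.033 with the fibroblast score as covariates.

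No feature passed an adjusted p under 0.1 with at least a 1.2-fold change in limma, where the lowest adjusted p was 0.256. An unadjusted p under 0.05 was reached by 1049 features, and voom on the recovered counts also gave 0 adjusted calls. At an unadjusted p under 0.05 and at least 1.2-fold, 5.87% of the kept features were called (996 of 16973), of which 188 were higher (1.11%) and 808 lower (4.76%) in HLU. Of the 7 imprinted genes tested, 1 was called, Peg3, among the higher ones. With the scalings by median of ratios and by quantiles, the split was 376 higher against 401 lower and 460 higher against 364 lower. The log2 fold change was above 0 for 6 of the 7 genes and for 32.1% of all kept features. The median was 0.15 over the 7 genes and -0.10 over all kept features, and the latter became -0.02 and 0.00 under the scalings by median of ratios and by quantiles. Mest was the gene below 0, and it turned to 0.05 and 0.04 under those scalings.

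**Figure D2:**
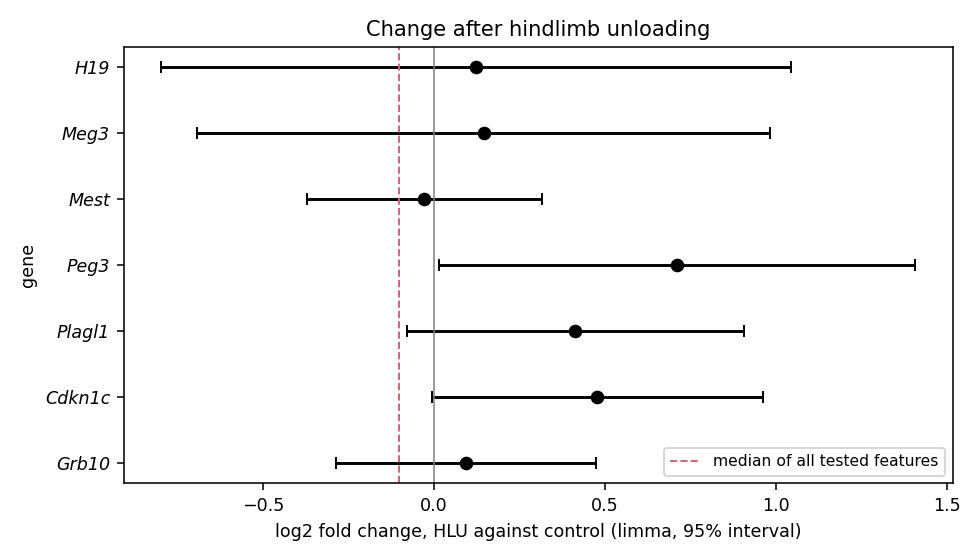
Log2 fold change of 7 imprinted genes, HLU against Control (x axis, limma on log2(RPKM + 0.1)), with 95% intervals, and the median of all 16973 tested features as a dashed line at -0.10. The interval of Peg3, 0.01 to 1.41, excludes 0 without adjustment, that of Cdkn1c reaches -0.01, and those of H19 and Meg3 are the widest of the 7.

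The spread between mice of a group set these genes apart from each other. The SD within groups on the log2 scale was 0.95 for H19, larger than for 88.5% of the kept features, 0.85 for Meg3 (85.8%) and 0.71 for Peg3 (79.2%). It was 0.48 for Plagl1 and for Cdkn1c, 0.37 for Grb10 and 0.30 for Mest, against a median of 0.43 over all kept features. The SD of Peg3 was 0.49 in Control and 0.88 in HLU. Whether these variances differ was not tested.

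Covariation between mice was measured on deviations from the group mean, so that the difference between groups adds nothing to it. All 21 pairs of the 7 genes were compared over 16 mice, with 100000 permutations within groups. Pearson's r was above 0 in 19 of 21 pairs with a median of 0.464, and 9 pairs had a Benjamini-Hochberg adjusted p under 0.1. By Spearman's rho 8 pairs did. For each gene of these 9 pairs, the share of all kept features with an r as high as that of its partner ran from 0.996% to 14.5% with a median of 5.96%. H19 and Meg3, the noncoding RNAs, formed the pair with the highest r, 0.822 (permutation p = 0.00022, adjusted p = 0.003675), with a Spearman's rho of 0.782 (permutation p = 0.00102, adjusted p = 0.0107). The r was 0.749 in Control and 0.932 in HLU, and without Control 3 and HLU 7, the most distant mice in H19, it was 0.759. A correlation with H19 as high as that of Meg3 was found in 0.996% of the kept features, and one with Meg3 as high as that of H19 in 4.57%.

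Peg3 and Grb10, of opposite parental expression, had an r of 0.816 (permutation p = 0.00035, adjusted p = 0.003675) and a rho of 0.788 (permutation p = 0.00073, adjusted p = 0.0107), and 0.762 without HLU 2 and HLU 3. The control mice fell into separate clusters for this pair. Control 1, 2, 6 and 7 were at 1.69 to 2.202 RPKM of Peg3 and 5.81 to 7.29 RPKM of Grb10, and Control 3, 4, 5 and 8 at 3.38 to 3.86 and 9.60 to 9.86 RPKM. The clusters of 4 are too small for an r of their own, and the pooled r rests in part on the gap between them. Among the HLU mice, which lay along a broader range, r was 0.774. The granulocyte score of the same Control mice was 0.16 to 0.43 in the lower cluster and -0.32 to 0.06 in the higher one. Their tendon and periosteal fibroblast score was -1.14 to -0.05 in the lower and 0.10 to 0.54 in the higher cluster. The osteoblast score was -0.74 to -0.07 and 0.22 to 0.76. What set the clusters apart was not tested.

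**Figure D3:**
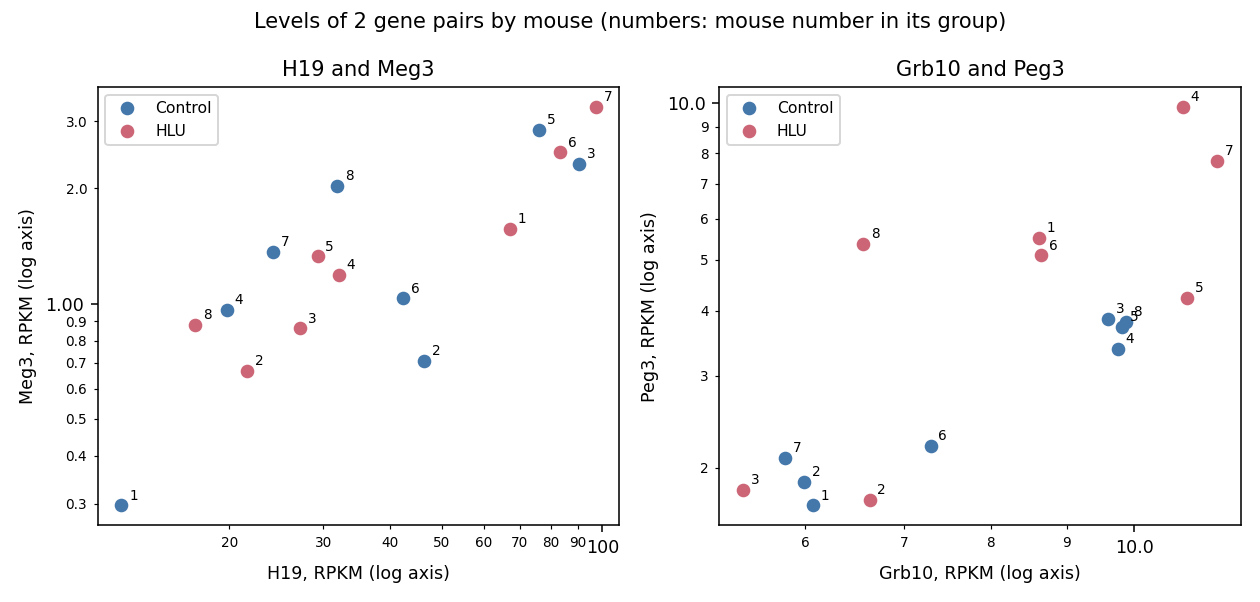
RPKM of H19 against Meg3 (left) and of Grb10 against Peg3 (right) on log axes, 1 point per mouse, 8 Control and 8 HLU, numbered within the group. HLU 7, HLU 6, Control 3 and Control 5 are high in both noncoding RNAs, and the Control mice form 2 clusters of 4 for Grb10 and Peg3.

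Grb10 was also correlated with Mest (r = 0.683, permutation p = 0.00692, adjusted p = 0.0291; rho = 0.712, permutation p = 0.00309) and with Meg3 (r = 0.680, permutation p = 0.00472, adjusted p = 0.0248; rho = 0.638, permutation p = 0.0104). Without Control 7 and HLU 1, the most distant mice in Mest, the former was 0.765, and without Control 1 and HLU 7, the most distant in Meg3, the latter was 0.601. Meg3 and Peg3 had an r of 0.650 (permutation p = 0.00402, adjusted p = 0.0248; rho = 0.732, permutation p = 0.00248) and 0.579 without 2 mice. Peg3 and Cdkn1c had an r of 0.593 (permutation p = 0.00998, adjusted p = 0.0349; rho = 0.688, permutation p = 0.00543) and 0.537 without 2 mice. Plagl1 and Cdkn1c followed with 0.600 (permutation p = 0.0215, adjusted p = 0.0645; rho = 0.532, permutation p = 0.0467, adjusted p = 0.109) and 0.511 without 2 mice. The remaining pairs under 0.1 were Cdkn1c with Grb10 (r = 0.542, adjusted p = 0.0810) and Mest with Peg3 (r = 0.525, adjusted p = 0.0810). Plagl1 stood apart from the noncoding RNAs, with r of -0.291 against H19 and -0.328 against Meg3, and neither passed the test (adjusted p = 0.360 and 0.319).

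**Figure D4:**
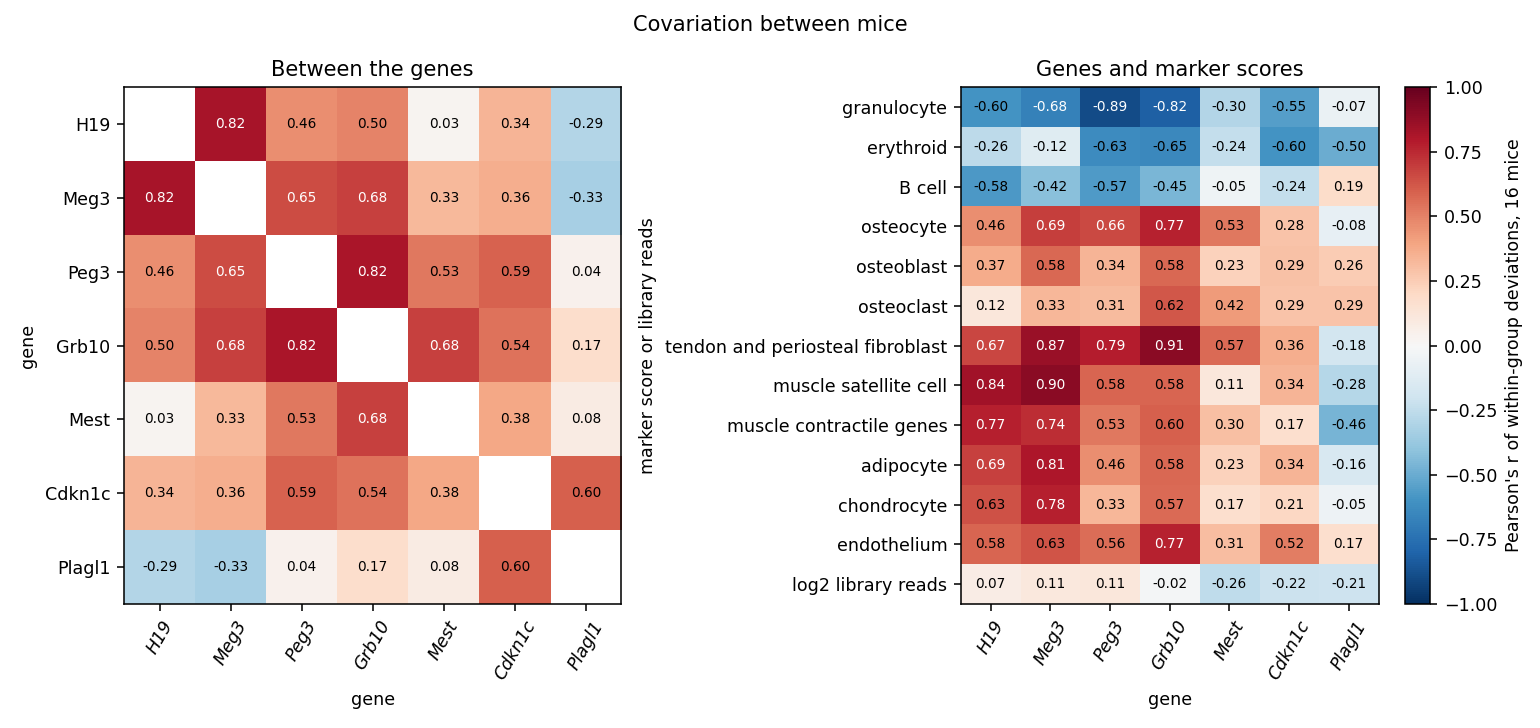
Pearson's r of within-group deviations over 16 mice between 7 imprinted genes (left) and of these genes with 12 marker scores and the log2 library reads (right), with red for positive and blue for negative values. Grb10, Meg3, Peg3 and H19 are positive with the tendon and periosteal fibroblast score and negative with the granulocyte score, Plagl1 is at -0.18 and -0.07 with them, and library reads stay between -0.26 and 0.11.

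The same mice also differed in markers of other cells, and these moved with the imprinted genes. A score was the mean log2 level of a list's kept markers, and 91 relations of 7 genes with 12 scores and the library reads were tested over 16 mice. An adjusted p under 0.1 was reached by 38 of them, 11 with Grb10, 9 with Meg3 and none with Plagl1. The share of all kept features related as closely to these scores was not measured. The count therefore does not set these genes apart from other genes. For the tendon and periosteal fibroblast markers, 8 of 8 kept and summing to 228 to 687 RPKM in Control and 237 to 839 RPKM in HLU, r was 0.906 with Grb10 (permutation p adjusted over 91 of 0.00091), 0.867 with Meg3 (0.00091), 0.788 with Peg3 (0.00312) and 0.672 with H19 (0.0348). Without Control 1 and HLU 3 these became 0.885, 0.839, 0.706 and 0.583, and Spearman's rho over all mice was 0.774, 0.897, 0.756 and 0.721. The granulocyte score had an r of -0.894 with Peg3, -0.816 with Grb10, -0.679 with Meg3 and -0.595 with H19. These were -0.859, -0.8285, -0.555 and -0.464 without HLU 2 and HLU 7, and rho over all mice was -0.879, -0.782, -0.788 and -0.632. With Cdkn1c it had an r of -0.553 (rho = -0.621, adjusted p of r = 0.0553), and -0.426 without those mice. This r was -0.130 within Control and -0.953 within HLU. The erythroid score, which differed most between the groups, had an r of -0.646 with Grb10, -0.630 with Peg3 and -0.600 with Cdkn1c (adjusted p = 0.0526, 0.0627 and 0.0559), with rho of -0.582, -0.538 and -0.635. Without Control 7 and HLU 2 these r became -0.547, -0.530 and -0.505. Within Control alone they were -0.280, -0.080 and -0.355, and within HLU alone -0.898, -0.868 and -0.914. The osteocyte score, of the labelled tissue, had an r of 0.772 with Grb10, 0.691 with Meg3 and 0.659 with Peg3, with adjusted p of 0.00657, 0.0277 and 0.02. For Meg3 the adipocyte score had an r of 0.811 (adjusted p = 0.00409) and the chondrocyte score one of 0.781 (adjusted p = 0.00737). Of the 8 chondrocyte markers 3 were kept, and Sox9, Ihh, Matn3, Lect1 and Col10a1 were not. The chondrocyte r with Meg3 was 0.922 within Control and 0.578 within HLU. For Grb10 the endothelium score had an r of 0.769 (adjusted p = 0.00833). The osteoblast, osteoclast and B cell scores had r between -0.58 and 0.62 with the 7 genes. Under 0.1 were osteoblast with Meg3 and Grb10 (adjusted p = 0.0697 each) and osteoclast with Grb10 (0.0594). So were B cell with H19 (0.0697) and Peg3 (0.0771). Within Control the osteoblast r was 0.946 with Peg3, 0.865 with Grb10 and 0.825 with Meg3. Within HLU these were 0.00096, 0.292 and 0.218. The B cell r with Peg3 was 0.111 within Control and -0.913 within HLU.

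Muscle transcripts moved with the noncoding RNAs, and less closely with Grb10 and Peg3. The contractile muscle genes, a list of 8 chosen after its values were seen, summed to 51.1 to 443 RPKM in Control and 44.0 to 594 RPKM in HLU. Their score had an r of 0.774 with H19 (adjusted p = 0.00753) and 0.737 with Meg3 (adjusted p = 0.0131), which were 0.690 and 0.547 without Control 1 and HLU 2. With Grb10 the contractile score had an r of 0.598 (adjusted p = 0.0658) and with Peg3 one of 0.527 (adjusted p = 0.103). Without Control 1 and HLU 2 the latter 2 were 0.505 and 0.254. The muscle satellite cell score, for which 3 of 6 markers were kept and Myf5, Calcr and Pax7 were not, had an r of 0.841 with H19 and 0.902 with Meg3. With Grb10 it had an r of 0.580 and with Peg3 one of 0.578 (adjusted p = 0.0697 each). Without Control 3 and HLU 2 the satellite cell r was 0.820 with H19, 0.899 with Meg3, 0.502 with Grb10 and 0.371 with Peg3. Library reads had an r between -0.26 and 0.11 with the 7 genes, none with an adjusted p under 0.1. The groups differed in sign for some genes. For Cdkn1c this r was -0.572 within Control and 0.318 within HLU, and for H19 -0.269 and 0.461. For Mest it was -0.494 without Control 2 and HLU 5.

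Removal of a score from both genes of a pair left some correlations, ended others and brought out further ones. With the contractile muscle score removed, H19 and Meg3 had an r of 0.588, with the fibroblast score 0.650 and with the erythroid and granulocyte scores 0.755. Peg3 and Grb10 had an r of 0.735 without the muscle score, 0.392 without the fibroblast score and 0.349 without the erythroid and granulocyte scores. Meg3 and Grb10 turned from 0.680 to -0.494 without the fibroblast score, and Meg3 and Peg3 from 0.650 to -0.106. Plagl1 and Cdkn1c had an r of 0.644 to 0.777 under the 3 removals, as high as measured or higher. Plagl1 and Grb10, at 0.175 as measured, had an r of 0.811 without the fibroblast score (adjusted p = 0.00819) and 0.637 without the muscle score (adjusted p = 0.0477), and H19 and Mest went from 0.026 to -0.583 without the fibroblast score (adjusted p = 0.0904). After removal of the erythroid and granulocyte scores 5 of the 21 pairs had an adjusted p under 0.1, all of them among the 9 as measured. After removal of the fibroblast score 5 did, of which 3 were among the 9, and after removal of the muscle score 8 did, of which 7 were. Whether the cells or the genes within them varied was not tested.

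**Figure D5:**
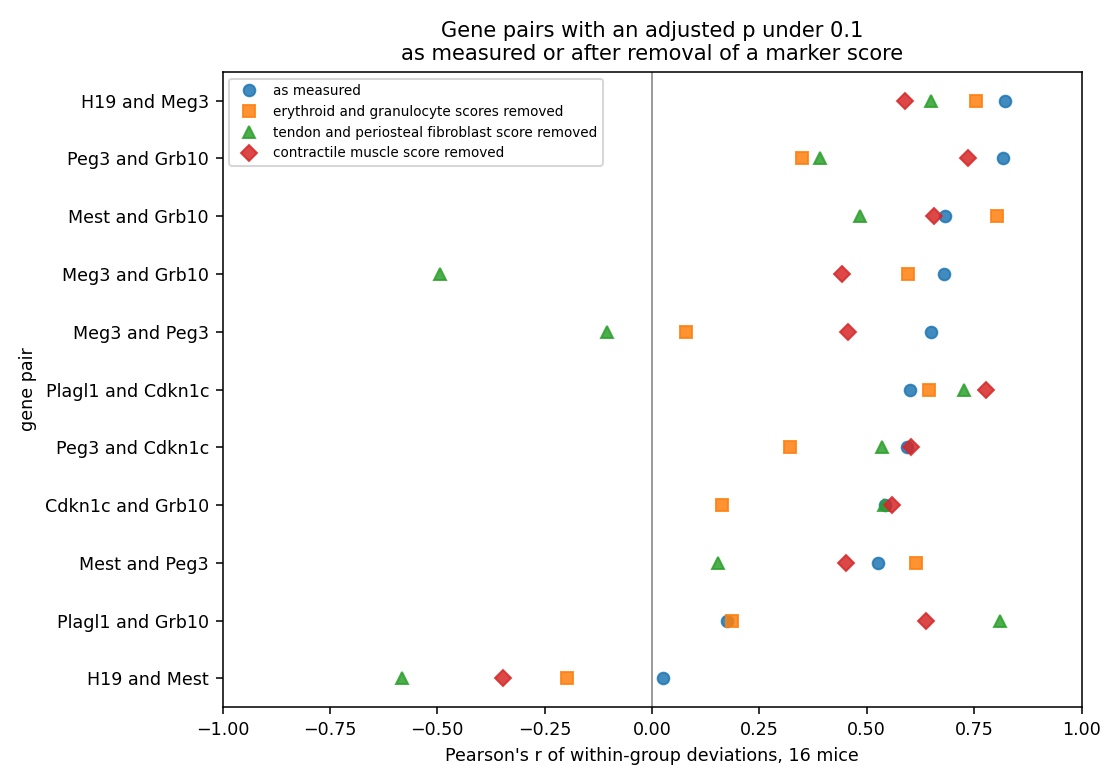
Pearson's r of within-group deviations over 16 mice (x axis) for the gene pairs with an adjusted p under 0.1 as measured or after removal of a marker score from both genes. H19 with Meg3 and Plagl1 with Cdkn1c stay above 0.58 in all 4 cases, and Meg3 with Grb10 moves from 0.680 to -0.494 and Plagl1 with Grb10 from 0.175 to 0.811 when the fibroblast score is removed.

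The transcripts most like each gene, the 3 kept features with the highest r over the 16 mice, differed from gene to gene. They were chosen for that value and are given with no test. For H19 they were P2rx6, a purinergic ion channel (r = 0.948), Ccdc136 (0.925) and Bag3, a co-chaperone (0.919). For Meg3 they were Angptl2 (0.982), the growth factor Tgfb3 (0.981) and the matrix protein Thbs3 (0.977). For Grb10 they were Dip2c (0.976), the RNA-binding protein Bicc1 (0.972) and the collagen-binding receptor Antxr1 (0.971). For Peg3 they were Asb4 (0.960), which is itself imprinted, the nuclear receptor Rora (0.958) and Gm23508 (0.958). For Plagl1 they were the nuclear receptor Nr2c1 (0.927), the homeobox factor Shox2 (0.891) and Hmgn3 (0.877). For Cdkn1c they were Mab21l2 (0.857), the calcium-binding protein S100b (0.835) and 4430402I18Rik (0.821). For Mest they were the predicted genes Gm15970 (0.873) and Gm11008 (0.865) and the cytoskeletal regulator Dpysl2 (0.862). None of the 7 genes was among the 3 most like another.

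Other imprinted genes were taken from a list of 67, of which 58 were matched and 32 kept. None of the 32 passed the unadjusted limma p under 0.05 with 1.2-fold, in either direction, against 5.87% of all kept features, and voom gave 0 as well. The log2 fold change was above 0 in 18 of 32, with a median of 0.06 and a range from -0.42 (Tspan32, a tetraspanin) to 0.54 (Cobl, an actin nucleator). Igf2, the growth factor beside H19, was at 2.34 ± 1.27 RPKM in Control and 2.63 ± 1.47 RPKM in HLU (log2 fold change 0.23 ± 0.37, limma adjusted p = 0.877). Igf2r, the receptor that clears it, was at 7.37 ± 1.57 and 8.02 ± 1.91 RPKM (0.11 ± 0.16). Its antisense RNA Airn overlaps it, and reads of the pair cannot be told apart without strand. Gnas, a G protein subunit, was at 32.3 ± 7.18 and 33.6 ± 6.44 RPKM (0.06 ± 0.15), Ndn, a growth suppressor, at 1.58 ± 0.757 and 2.11 ± 1.18 RPKM (0.32 ± 0.35), and Peg10, a gene derived from a retrotransposon, at 1.15 ± 0.250 and 1.02 ± 0.236 RPKM (-0.17 ± 0.17). Kcnq1ot1 is not analysed here.

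Igf2 varied with the same genes, in 35 relations tested between the 5 genes just named and the 7. It had an r of 0.894 with Meg3 (permutation p adjusted over 35 of 0.000583; rho = 0.853) and 0.694 with H19 (adjusted p = 0.0169; rho = 0.682). Without Control 1 and HLU 7 these became 0.777 and 0.460, so that the relation with its neighbour H19 rests in part on those mice. Igf2r had an r of 0.873 with Meg3 and Gnas one of 0.880, each with an adjusted p of 0.000583, and with their 2 most distant mice left out these were 0.848 and 0.826. Over the 32 other imprinted genes kept, r with Meg3 ran from -0.932 to 0.948, and several exceeded the values named here. The share of all kept features as close to Meg3 as Igf2, Igf2r or Gnas was not measured. Ndn had an r of 0.817 with Peg3 (adjusted p = 0.00385; rho = 0.797), and 0.737 without HLU 2 and HLU 7. These genes were not adjusted for the marker scores, and the part of the scores in these relations was not tested.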

How the data were processed

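RNA of femoral cortical bone was sequenced from 8 Control and 8 HLU mice (TruSeq RNA v2 libraries on an Illumina HiSeq), 1 library per mouse. The submitters' processing notes name TopHat2, mm9 and DESeq2, and the deposited values are RPKM per feature as computed by the authors, with no filter on low values. The counter is not given in the sources used here. Whole counts were recovered from the RPKM values of 16973 of 16973 kept features, and the procedure was tested on simulated data, where 2011 of 2011 features were exact. The implied lengths matched the summed distinct exons of GENCODE M21 genes for 3060 of 10754 genes with overlapping exons and the exon union for 35, so that a read on overlapping exons may have been counted more than once, and recovered counts are not independent molecules. Whether counting used strand is not given in the sources used here. The symbol Rnf135 was given to 3887 features, and none of them was used by name.

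RPKM is no count, so the count test of the study's methods was replaced by limma 3.58.1 in R 4.3.3, with log2(RPKM + 0.1), a variance trend and equal weights, on features whose mean reached 0.5 RPKM. A feature was called at a Benjamini-Hochberg adjusted p under 0.1 and 1.2-fold, the thresholds of the study, or at an unadjusted p under 0.05 and 1.2-fold. Fold changes on this scale understate the change of low genes. For single genes the group labels were also permuted in every one of 12870 ways, as an exact two-sided test whose smallest p is 0.000155. Correlations used Python 3.11.15, numpy 2.4.6 and scipy 1.17.1, with p-values from permutations within groups. The p-values measure the spread between mice, with 1 library each.

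The genes, the lists of other imprinted genes and of markers, and the tests were chosen with earlier results of these data known. Named are all 10 genes, other imprinted genes past the unadjusted threshold with Igf2, Igf2r, Gnas, Peg10, Ndn and Kcnq1ot1 always, the ends of that list's range (chosen after the values were seen), and the 3 features most like each gene. The contractile muscle list, the fibroblast score as a covariate and the fits without the 2 smallest libraries were chosen after seeing the data. Alternatives covered pseudocounts, filters, scalings, the variance trend, marker scores, voom on counts, the mouse number as a block and each mouse left out. Promoter and microRNA sequences are RefSeq's (GRCm38.p6), a build other than that of the values, and no coordinates of the files were used.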

Additional observations from a re-analysis of the deposited data

How the results depend on the processing

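Among 13 alternatives besides the 16 that left out a mouse, features past the adjusted threshold, 0 as reported, became 1 with the contractile muscle score, the fibroblast score, no filter or no variance trend, and 8 with the erythroid and granulocyte scores. They were 0 to 1 with a mouse left out. Features past the unadjusted threshold, 996 as reported, became 1840 with the muscle score and 3208 with the erythroid and granulocyte scores, and ran from 588 to 1748 with a mouse left out. Those lowering it by over 1.5 times were Control 6 (649), Control 7 (659), HLU 1 (629) and HLU 7 (588), and HLU 2 raised it (1748). Of the 7 genes, 2 in place of 1 passed with the erythroid and granulocyte scores (Peg3 and Meg3, the latter at 0.61), with median of ratios, quantile normalization or voom (Peg3 and Cdkn1c, the latter at 0.56, 0.59 and 0.54), and 0 to 2 with a mouse left out. Without Control 2 and HLU 5, the smallest libraries, Peg3 was at 0.65, no longer past an unadjusted limma p of 0.05, and Cdkn1c at 0.59, now past it. Other imprinted genes past the threshold, 0 as reported, were 6 with the muscle score, 10 with the erythroid and granulocyte scores, 2 with quantile normalization, 1 with the fibroblast score, median of ratios or no filter, and 0 to 5 with a mouse left out. Correlated pairs, 9 as reported, were 8 by Spearman's rho, 5 with the erythroid and granulocyte scores or the fibroblast score, and 6 to 10 with a mouse left out. The cause of these changes was not tested.

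Differences near 0 changed sign. Grb10 became -0.0036 with the erythroid and granulocyte scores, -0.033 with the fibroblast score and -0.014 without the smallest libraries. H19 became -0.12 and Meg3 -0.13 with the fibroblast score, and Mest 0.054 with median of ratios and 0.042 with quantile normalization. With a mouse left out H19 ran from -0.090 to 0.32, Meg3 from -0.10 to 0.31, Mest from -0.082 to 0.043, and the values of Grb10, Peg3, Plagl1 and Cdkn1c stayed above 0. None of these sign changes came with a limma p under 0.05. Mice with the same number did not vary together in most pairs. Their correlations over all kept features ran from -0.166 to 0.510, the highest for Control 4 and HLU 4, and 3 of 8 were over 0.1. Of the Control mice 1 of 8 correlated best with the HLU mouse of its own number. With the number as a replicate block, 1039 features and 2 of the 7 genes passed the unadjusted threshold, Peg3 and Plagl1 (0.41), and 0 features the adjusted one. The planned covariate of mature skeletal muscle markers was not run, since those symbols are not analysed here. Dlk1, at 20 counts or fewer, and H19 and Meg3, with their spread between mice, allow no firm statement on a small change.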
